A study of Mus musculus with 12 samples.

Results

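The 10 genes described here encode the major histocompatibility complex (MHC) class I molecules of mouse dendritic cells (DCs) and the proteins that supply them with peptide. They were taken by symbol from a count table of 55471 genes, and all 10 were among the 18228 genes with enough counts to be tested. The study asked how the transcriptional co-activator PGC-1β, the product of *Ppargc1b*, shapes DCs and their answer to interferon-β (IFN-β), an antiviral cytokine. Bone marrow of female C57BL/6 mice received a retrovirus with a human CD8 reporter and a short hairpin RNA (shRNA), and was grown into DCs with GM-CSF and sorted on the reporter with microbeads. The hairpin targeted *Ppargc1b* (sh*Ppargc1b*) or, in shControl, the luciferase of the firefly, which mouse cells lack. Both kinds of cell were left unstimulated or were given IFN-β for 6 h, which made 4 groups of 3 libraries. All groups therefore shared the transduction, the culture and the sort, and differed in the hairpin and the cytokine. The age of the mice was given in the methods as a range of weeks and not per library. The paper's results name a default among the *Ppargc1b* hairpins for most experiments unless stated otherwise, without naming the hairpin of these libraries. The sources used here do not say whether the 3 libraries of a group came from separate mice or cultures, so p-values measure the spread between these libraries, which may be technical.

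MHC class I molecules show peptides from inside the cell to CD8+ T cells. A heavy chain folds in the endoplasmic reticulum (ER) with the light chain β2-microglobulin, and a loading complex holds it there until a fitting peptide binds. The peptides are cut by the proteasome, carried into the ER by the TAP1/TAP2 transporter and trimmed by the aminopeptidase ERAP1, while tapasin bridges TAP and the heavy chain. Transcription of this set is driven by NLRC5, by interferon-regulated factors and by NF-κB, and type I interferons raise it. DCs use it both for their own proteins and for proteins taken up from other cells, which is called cross-presentation.

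The members fall into 4 classes by role. The heavy chains were *H2-K1* (ENSMUSG00000061232) at chr17:33996017-34000347 on the minus strand, *H2-D1* (ENSMUSG00000073411) at chr17:35262730-35267499 on the plus strand, *H2-Q4* (ENSMUSG00000035929) at chr17:35379617-35385290 on the plus strand and *H2-T23* (ENSMUSG00000067212) at chr17:36029773-36032855 on the minus strand. *H2-K1* and *H2-D1* are the classical genes, *H2-Q4* is a nonclassical gene of the Q region, and *H2-T23* encodes Qa-1, a ligand of inhibitory natural killer cell receptors. The light chain was *B2m* (ENSMUSG00000060802) at chr2:122147686-122153083 on the plus strand. The peptide loading genes were *Tap1* (ENSMUSG00000037321) at chr17:34187553-34197225 on the plus strand, *Tap2* (ENSMUSG00000024339) at chr17:34203527-34216321 on the plus strand, *Tapbp* (ENSMUSG00000024308) at chr17:33915899-33929292 on the plus strand, which encodes tapasin, and *Erap1* (ENSMUSG00000021583) at chr13:74639568-74693201 on the plus strand. The regulator was *Nlrc5* (ENSMUSG00000074151) at chr8:94434356-94527272 on the plus strand. All positions are on GRCm38, and all 10 genes are annotated as protein coding. Thus 7 of the 10 genes lie on chromosome 17, in or near the MHC.

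Promoters were read from RefSeq (GRCm38.p6), which gave a window for 8 of the 10 genes, and none was read for *Tap2* and *Nlrc5*. The 250 bases before the start of *H2-K1*, *H2-Q4* and *B2m* are printed because they let the motifs of a classical heavy chain, a nonclassical one and the light chain be compared. Capitals mark matches, on either strand, to GAAANNGAA (the core of an interferon-stimulated response element, ISRE), TTCNNNGAA (a gamma-activated site, GAS), GGAANNCCC (part of an NF-κB site), TGACG (the core of a cyclic AMP response element) and CCAAT.
H2-K1, chr17:34000348-34000597, minus strand: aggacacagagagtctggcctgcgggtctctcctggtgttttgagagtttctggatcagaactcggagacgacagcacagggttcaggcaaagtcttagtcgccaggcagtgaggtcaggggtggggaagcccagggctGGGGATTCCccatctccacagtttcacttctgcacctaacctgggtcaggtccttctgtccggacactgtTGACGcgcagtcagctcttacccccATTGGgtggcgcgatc
H2-Q4, chr17:35379367-35379616, plus strand: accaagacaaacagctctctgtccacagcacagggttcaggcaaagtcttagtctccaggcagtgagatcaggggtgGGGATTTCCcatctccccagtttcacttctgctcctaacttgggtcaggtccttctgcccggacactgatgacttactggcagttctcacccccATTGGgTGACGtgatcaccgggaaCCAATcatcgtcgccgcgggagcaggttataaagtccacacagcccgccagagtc
B2m, chr2:122147437-122147686, plus strand: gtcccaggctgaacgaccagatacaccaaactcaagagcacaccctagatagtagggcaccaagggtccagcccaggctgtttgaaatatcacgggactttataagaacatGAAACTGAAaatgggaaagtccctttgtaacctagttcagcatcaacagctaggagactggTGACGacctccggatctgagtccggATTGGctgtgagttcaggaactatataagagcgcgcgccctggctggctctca
The NF-κB motif was present in *H2-K1*, *H2-D1* and *H2-Q4*, and in 4.98% of all 32851 promoter windows. TGACG and CCAAT were present in those 3 genes, in *B2m* and in *Tap1*, against 17.8% and 33.8% of all windows, and *H2-T23* held CCAAT without TGACG. The stretches around the NF-κB match are shown together because *H2-K1* and *H2-D1* carry the same 9 letters there and *H2-Q4* carries other ones.
H2-K1, chr17:34000440-34000468: gcccagggctGGGGATTCCccatctccac
H2-D1, chr17:35262913-35262941: gcccagggctGGGGATTCCccatctcctc
H2-Q4, chr17:35379434-35379462: atcaggggtgGGGATTTCCcatctcccca
The ISRE core as spelled above was present in *H2-T23*, *B2m* and *Erap1*, against 7.13% of all windows. The match in *B2m* reads in the direction of the gene and the other two read against it. In *Erap1* the match ends at the base before the RefSeq start, so the stretch is shorter. RefSeq starts can differ from those of GENCODE, and the stretches of *H2-D1*, *H2-T23* and *Erap1* lie inside the GENCODE gene positions given above.
H2-T23, chr17:36032806-36032834: tcctactgctTTCTCTTTCataaagacac
B2m, chr2:122147538-122147566: ataagaacatGAAACTGAAaatgggaaag
Erap1, chr13:74639834-74639852: ccggtccaccTTCACTTTC
*Tapbp* held CCAAT matches and no other of the motifs, and no GAS match was found in the 8 genes, against 7.02% of all windows. A second RefSeq start of *H2-K1*, 14 bases downstream, held the same motifs and 1 more CCAAT. These are matches of exact letters in a short window, in no case a measured binding site. Sites spelled in other letters were not looked for, so the lack of a match does not show the lack of a site.

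Library totals were 49919648 to 77726101 counts, and each member had between 3120 and 512978 counts in every library, so counting error was small beside the spread between libraries. Levels are given as CPM, the usual unit of counts relative to the library total, with totals adjusted by TMM factors. *Ppargc1b* itself stood at 33.4, 33.3 and 36.7 CPM in unstimulated shControl and at 18.6, 19.3 and 20.3 CPM in unstimulated sh*Ppargc1b*, and with IFN-β at 31.4, 23.6 and 28.4 CPM and 19.6, 15.5 and 20.9 CPM. The knockdown thus left a large part of the transcript in place, with fitted folds of 0.563 and 0.672 (adjusted p = 3.25e-05 and 0.000945).

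The 10 genes together took 0.779 ± 0.0218% of all counts in unstimulated shControl (SD, n = 3) and 1.15 ± 0.019% after IFN-β. In sh*Ppargc1b* they took 0.936 ± 0.0586% and 1.27 ± 0.0394%. Per kilobase of exon the levels covered a wide range. In unstimulated shControl *B2m* was at 5380 CPM per kb and ranked 4 of 18202 genes, and *Nlrc5* was at 7.41 CPM per kb and ranked 5064. Between them lay *H2-D1* at 375, *H2-K1* at 256, *Tapbp* at 103, *H2-Q4* at 31.4, *H2-T23* at 30.8, *Tap2* and *Erap1* each at 14.9, and *Tap1* at 12.4 CPM per kb. In that order the neighbours *H2-Q4* and *H2-T23* overlapped between libraries, as did *Tap2* and *Erap1*, and every other pair of neighbours was separate.

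IFN-β changed the order at its lower end. In IFN-β-treated shControl *Tap1* stood at 54.5, *Tap2* at 49.5 and *Nlrc5* at 46.5 CPM per kb, all above *Erap1* at 27.5 CPM per kb. The ranges of these 4 genes did not overlap each other. At the upper end the order was kept, with *B2m* at 8090, *H2-D1* at 597, *H2-K1* at 471 and *Tapbp* at 290 CPM per kb. The plot of levels per length shows *B2m* more than an order of magnitude above the classical heavy chains in each group.

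**Figure D1:**
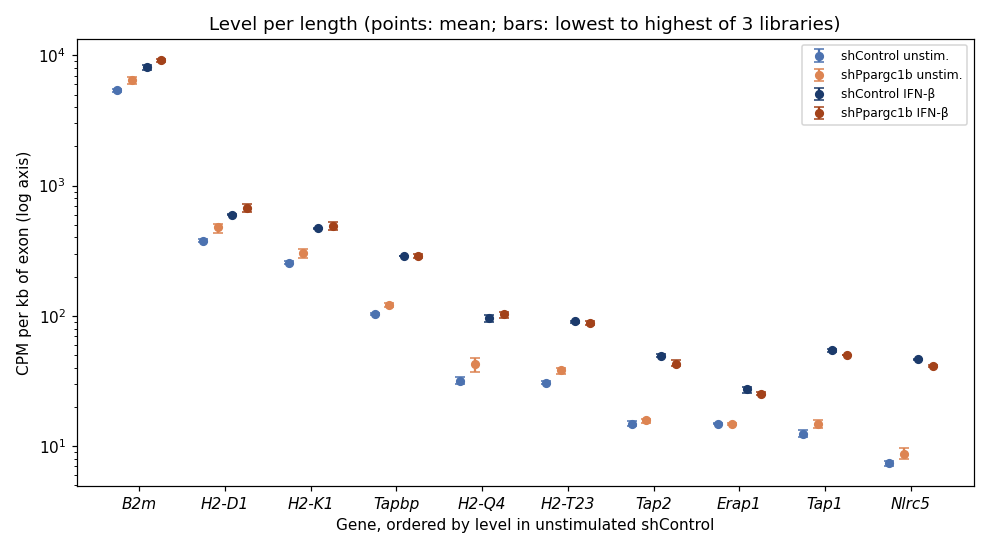
Level of each of the 10 genes per kilobase of exon, on a log axis of CPM per kb, in the 4 groups; points are means and bars run from the lowest to the highest of 3 libraries. In unstimulated shControl the levels ran from 7.41 CPM per kb (*Nlrc5*) to 5380 CPM per kb (*B2m*), and with IFN-β *Tap1*, *Tap2* and *Nlrc5* stood above *Erap1*.

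IFN-β raised all 10 genes in shControl DCs, where 23.7% of all tested genes rose and 24.6% fell. The median log2 fold change of the 10 was 1.53, against −0.03 over all genes. The groups did not overlap for any of the 10, and 56.7% of all genes had groups that did not overlap. Among the 10 fitted folds that of *B2m* was the smallest, and those of *Nlrc5* and *Tap1* were the largest.

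Among the heavy chains, the classical gene *H2-K1* went from 748, 777 and 731 CPM in the 3 unstimulated libraries to 1400, 1370 and 1379 CPM with IFN-β, a rise of 0.88 ± 0.06 on the log2 scale, 1.84-fold, adjusted p = 3.88e-09 (± SE here and below). *H2-D1* went from 956, 1006 and 943 CPM to 1551, 1535 and 1537 CPM, a rise of 0.67 ± 0.06 on the log2 scale, 1.59-fold, adjusted p = 2.49e-07. The treated libraries of both genes lay close together and far above the unstimulated ones. The nonclassical genes had larger fitted folds and lower levels. *H2-Q4* went from 78.4, 87.8 and 78.4 CPM to 234, 263 and 258 CPM, and *H2-T23* from 88.8, 91.6 and 86.8 CPM to 266, 254 and 265 CPM. These rises were 1.62 ± 0.08 and 1.55 ± 0.05 on the log2 scale, 3.08-fold and 2.94-fold, with adjusted p = 1.07e-10 and 3.07e-13.

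The light chain *B2m* went from 4499, 4746 and 4629 CPM to 6638, 7027 and 7217 CPM, a rise of 0.59 ± 0.05 on the log2 scale, 1.51-fold, adjusted p = 1.35e-07. This was the smallest fold of the 10 and the largest gain in CPM, since group means differed by 2340 CPM for *B2m* and by 91.5 CPM for *Erap1*, the smallest gain. The transporter subunits rose together, *Tap1* from 66, 72.8 and 64.5 CPM to 298, 292 and 305 CPM and *Tap2* from 54.6, 58.6 and 55.4 CPM to 182, 194 and 187 CPM. On the log2 scale the rise was 2.14 ± 0.05 for *Tap1* and 1.74 ± 0.05 for *Tap2*, with adjusted p = 3.14e-14 and 7.74e-14. Tapasin, which anchors the loading complex, rose from 369, 381 and 367 CPM to 1052, 1050 and 1052 CPM (1.5 ± 0.04 on the log2 scale, adjusted p = 6.18e-14), and its treated libraries were nearly equal. *Erap1* went from 107, 111 and 108 CPM to 188, 209 and 203 CPM, a rise of 0.88 ± 0.04 on the log2 scale, 1.84-fold, adjusted p = 1.07e-10.

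*Nlrc5*, which binds class I promoters through other factors and raises their transcription, went from 63, 65.4 and 60.3 CPM to 396, 399 and 390.1 CPM. Its rise of 2.65 ± 0.06 on the log2 scale, 6.28-fold, adjusted p = 1.06e-14, was the steepest of the 10 and ranked 285 among the rises of all 18228 genes. *Tap1* ranked 456 and *B2m* 2664 in the same order.

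**Figure D2:**
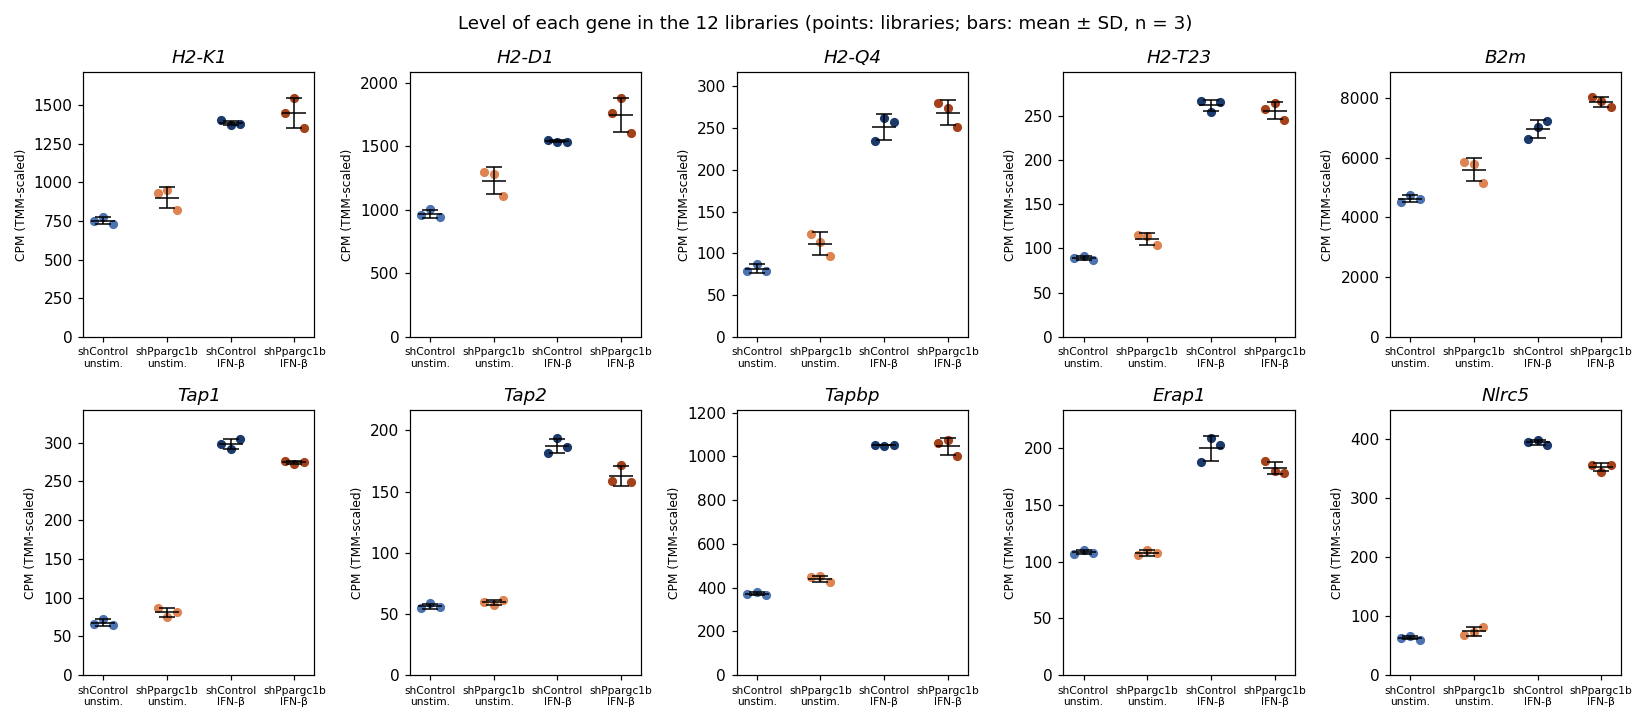
CPM of each of the 10 genes in the 12 libraries, with 1 panel per gene; points are libraries and bars are the mean ± SD of 3. Every IFN-β-treated library lies above every unstimulated library of the same hairpin, and without IFN-β the shPpargc1b points lie above the shControl points in all panels but *Tap2* and *Erap1*.

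The same 10 genes rose with IFN-β in sh*Ppargc1b* DCs, where 21.4% of all genes rose and 21.2% fell. Their median log2 fold change was 1.23, against −0.02 over all genes, and 50.1% of all genes had groups that did not overlap. On the log2 scale *Nlrc5* again rose most, at 2.25 ± 0.06 or 4.77-fold (adjusted p = 7.46e-14), and *B2m* least, at 0.49 ± 0.05 or 1.41-fold (adjusted p = 1.46e-06). *Tap1* rose by 1.76 ± 0.05, *Tap2* by 1.45 ± 0.05 and *Tapbp* by 1.25 ± 0.04. The classical heavy chains *H2-K1* and *H2-D1* rose by 0.69 ± 0.06 and 0.51 ± 0.06, the nonclassical *H2-Q4* and *H2-T23* by 1.27 ± 0.08 and 1.20 ± 0.05, and *Erap1* by 0.76 ± 0.04. Each fitted fold was smaller than the one in shControl, a difference that the interaction term tests.

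**Figure D3:**
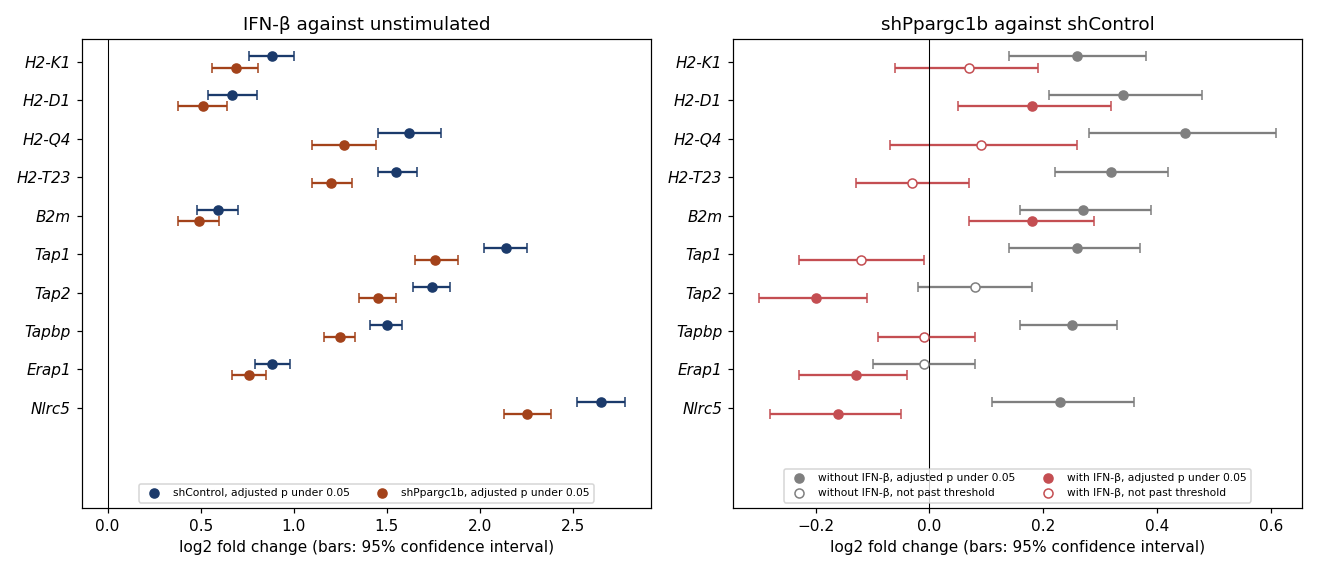
Fitted log2 fold changes of the 10 genes, with 95% confidence intervals, for IFN-β against unstimulated cells (left) and for shPpargc1b against shControl (right); filled points passed an adjusted p of 0.05. On the left all points are filled and run from 0.49 to 2.65, and on the right 8 points are above 0 and filled without IFN-β, whereas with IFN-β 2 filled points lie above 0 and 3 below it.

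Without IFN-β, 8 of the 10 genes were higher in sh*Ppargc1b* than in shControl DCs, none was lower, and *Tap2* and *Erap1* did not pass the test. Over all genes, 12.4% were higher and 11.1% lower. The rises were modest, with a median log2 fold change of 0.26 over the 10, against 0 over all genes. The 8 called genes had sh*Ppargc1b* libraries that were all above the shControl ones, and 36.8% of all genes had groups that did not overlap.

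*H2-K1* was at 928, 951 and 821 CPM in unstimulated sh*Ppargc1b*, above each of the shControl values of 748, 777 and 731 CPM, a rise of 0.26 ± 0.06 on the log2 scale, 1.2-fold, adjusted p = 0.00354. *H2-D1* was at 1299, 1282 and 1109 CPM, against 956, 1006 and 943 CPM, a rise of 0.34 ± 0.06 on the log2 scale, 1.27-fold, adjusted p = 0.000746. In both genes the third sh*Ppargc1b* library was the lowest of its group and still above every shControl library. *H2-Q4* was at 124, 114 and 96.3 CPM, against 78.4, 87.8 and 78.4 CPM, which was the largest rise of the 10 (0.45 ± 0.08 on the log2 scale, 1.36-fold, adjusted p = 0.000607). *H2-T23* was at 115, 115 and 103 CPM, against 88.8, 91.6 and 86.8 CPM, a rise of 0.32 ± 0.05 on the log2 scale, 1.25-fold, adjusted p = 0.000141. All 4 heavy chains measured here were thus higher in the knockdown cells.

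*B2m* moved by a like amount, from 4499, 4746 and 4629 CPM in shControl to 5857, 5770 and 5160 CPM in sh*Ppargc1b*, a rise of 0.27 ± 0.05 on the log2 scale, 1.21-fold, adjusted p = 0.00108. Among the loading genes, *Tap1* was at 86.3, 75.4 and 81 CPM, against 66, 72.8 and 64.5 CPM (0.26 ± 0.05 on the log2 scale, 1.19-fold, adjusted p = 0.00202). Its lowest sh*Ppargc1b* library and its highest shControl library, the second of each group, lay close together. *Tapbp* was at 446, 452 and 426 CPM, against 369, 381 and 367 CPM, a rise of 0.25 ± 0.04 on the log2 scale, 1.19-fold, adjusted p = 0.00027. *Nlrc5* was at 67.5, 72.2 and 82 CPM, against 63, 65.4 and 60.3 CPM, a rise of 0.23 ± 0.06 on the log2 scale, 1.18-fold, adjusted p = 0.00734. Here the third sh*Ppargc1b* library, the lowest for the heavy chains, was the highest of its group.

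*Tap2*, the other subunit of the transporter, was at 60, 57.3 and 61.5 CPM in sh*Ppargc1b* and 54.6, 58.6 and 55.4 CPM in shControl, and the groups overlapped (0.08, 95% confidence interval −0.02 to 0.18, adjusted p = 0.233). *Erap1* was at 105, 110.3 and 107 CPM and 107, 111 and 108 CPM (−0.01, 95% confidence interval −0.10 to 0.08, adjusted p = 0.909). The interval for *Erap1* leaves out a rise of the size seen for *B2m*, and both genes had intervals that end at or below 0.18. In shControl the second unstimulated library was the highest of its group for all 10 genes, and in sh*Ppargc1b* the third was the lowest for 6 of them. The 8 calls were made again when any 1 of the 12 libraries was left out.

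With IFN-β, the 2 kinds of cell differed in both directions. *H2-D1* and *B2m* were higher in sh*Ppargc1b*, *Tap2*, *Erap1* and *Nlrc5* were lower, and the other 5 genes did not pass the test. Over all genes, 11.5% were higher and 12.7% lower, and 38.7% had groups that did not overlap. The median log2 fold change of the 10 was −0.02, against −0.01 over all genes.

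*H2-D1* was at 1764, 1878 and 1608 CPM in sh*Ppargc1b* with IFN-β and at 1551, 1535 and 1537 CPM in shControl with IFN-β, a rise of 0.18 ± 0.06 on the log2 scale, 1.14-fold, adjusted p = 0.0424. *B2m* was at 8028, 7888 and 7695 CPM, against 6638, 7027 and 7217 CPM, a rise of 0.18 ± 0.05 on the log2 scale, 1.13-fold, adjusted p = 0.0208. In both genes every sh*Ppargc1b* library was above every shControl library. *H2-K1*, at 1447, 1546 and 1350 CPM against 1400, 1370 and 1379 CPM, did not pass (0.07, 95% confidence interval −0.06 to 0.19, adjusted p = 0.454), and the third sh*Ppargc1b* library was below all shControl libraries. *H2-Q4* was at 279.6, 275 and 251 CPM, against 234, 263 and 258 CPM (0.09, 95% confidence interval −0.07 to 0.26, adjusted p = 0.425). *H2-T23* was at 257, 265 and 245 CPM, against 266, 254 and 265 CPM (−0.03, 95% confidence interval −0.13 to 0.07, adjusted p = 0.664). Both nonclassical genes, which were higher in sh*Ppargc1b* without IFN-β, thus overlapped between the hairpins with it.

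*Tap2* was at 159, 172 and 158 CPM in sh*Ppargc1b* and at 182, 194 and 187 CPM in shControl, and it fell by 0.20 ± 0.05 on the log2 scale, 0.868-fold, adjusted p = 0.00409. *Nlrc5* was at 357, 345 and 356 CPM, against 396, 399 and 390.1 CPM, and fell by 0.16 ± 0.06 on the log2 scale, 0.893-fold, adjusted p = 0.0425. For both genes all sh*Ppargc1b* libraries were below all shControl libraries. *Tap1* also had groups that did not overlap, at 276, 272 and 275 CPM against 298, 292 and 305 CPM, but it did not pass the test (−0.12, 95% confidence interval −0.23 to −0.01, adjusted p = 0.105). *Erap1* was at 188, 179.8 and 178 CPM, against 188, 209 and 203 CPM, and fell by 0.13 ± 0.04 on the log2 scale, 0.911-fold, adjusted p = 0.0325, although the first library of each group overlapped. *Tapbp* was at 1063, 1076 and 1003 CPM, against 1052, 1050 and 1052 CPM (−0.01, 95% confidence interval −0.09 to 0.08, adjusted p = 0.939).

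Of these 5 calls, the one of *Tap2* was made in each of 18 other settings, with adjusted p-values of 0.000348 to 0.0155. The other 4 were lost when single libraries were left out. *H2-D1* lost its call without any 1 of the 3 shControl IFN-β libraries (adjusted p = 0.11, 0.134 and 0.131 in replicate order) or without the first or second sh*Ppargc1b* IFN-β library (0.129 and 0.214). *B2m* lost it without the first or second shControl IFN-β library (0.128 and 0.0667) or without the first or second sh*Ppargc1b* IFN-β library (0.096 and 0.0556). *Erap1* kept it only without the first IFN-β library of either hairpin, and *Nlrc5* only without the first or the third unstimulated sh*Ppargc1b* library. Each lost it without the other 10 libraries, with adjusted p-values of up to 0.0938 and 0.089.

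Whether the difference between the hairpins was the same in both treatments was asked with the interaction term. It is the log2 response to IFN-β in sh*Ppargc1b* minus the response in shControl, which equals the difference between the 2 knockdown effects. Its estimate was below 0 for each of the 10 genes, with a median of −0.27 against 0 over all genes, and 3 genes passed the test (5 by DESeq2). *H2-T23* was at −0.35 ± 0.07 (0.785-fold, adjusted p = 0.0234), *Tap1* at −0.38 ± 0.07 (0.771-fold, adjusted p = 0.0263) and *Nlrc5* at −0.40 ± 0.08 (0.759-fold, adjusted p = 0.0333). Over all genes, 0.669% passed with a lower and 0.0603% with a higher value. In the 3 genes that passed, the hairpin went with a higher level without IFN-β and with a lower or overlapping level with it.

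*Tapbp* (−0.25 ± 0.06, adjusted p = 0.0527) and *Tap2* (−0.29 ± 0.07, adjusted p = 0.061) were close to the threshold. They passed it in 5 and 6 of 17 other settings, both of them by DESeq2 and with a block for runs of library codes. *H2-Q4* had an estimate as large as that of *H2-T23* but a wider interval (−0.35, 95% confidence interval −0.59 to −0.12, adjusted p = 0.192). The values for *H2-K1*, *H2-D1*, *Erap1* and *B2m* were −0.19, −0.16, −0.12 and −0.10, with adjusted p-values of 0.405 to 0.733. On the linear scale, the CPM gained with IFN-β in sh*Ppargc1b* was 97.4% of the gain in shControl for *B2m*, 90.8% for *H2-D1*, 86.8% for *H2-K1*, 84% for *Tap1*, 83.9% for *Nlrc5* and *H2-T23*, and 78.6% for *Tap2*. It was 92.5% for *H2-Q4*, 89.2% for *Tapbp* and 81.5% for *Erap1*. The starting level was higher for 8 of the genes, and the gain in CPM was smaller for each of the 10, which was not tested.

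The 3 interaction calls depended on single libraries. None of the 3 was made without the first or the third unstimulated shControl library, the third shControl IFN-β library or the third sh*Ppargc1b* IFN-β library, where their adjusted p-values lay between 0.055 and 0.139. *Nlrc5* and *Tap1* were also lost without the second shControl IFN-β library (0.068 and 0.0517) and without the third unstimulated sh*Ppargc1b* library (0.0682 and 0.0892). *H2-T23* was lost without the first or second unstimulated sh*Ppargc1b* library (0.0801 and 0.0989), *Tap1* without the first (0.0741) and *Nlrc5* without the second (0.0819). The direction was negative for each of the 10 genes whichever library was left out.

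Ratios of counts within a library compare members without any scaling. The smallest p that 3 libraries against 3 allow in the exact two-sided permutation test is 0.1, which is 0.143 after adjustment over the 20 comparisons made, so no ratio could pass, and the values are given with whether the groups overlapped. The ratio of the 2 classical heavy chains, *H2-K1* to *H2-D1*, was higher in each IFN-β library than in each unstimulated library of the same hairpin. It was 0.783, 0.772 and 0.774 in unstimulated shControl and 0.902, 0.892 and 0.897 with IFN-β, and in sh*Ppargc1b* it was 0.715, 0.742 and 0.74 and 0.82, 0.823 and 0.84. The sh*Ppargc1b* values were below all shControl values of the same treatment, both without and with IFN-β. *H2-K1* and *H2-D1* together relative to *B2m* were 0.379, 0.376 and 0.362 in unstimulated shControl and 0.38, 0.387 and 0.374 in unstimulated sh*Ppargc1b*, which overlapped.

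The ratio of the 2 transporter subunits, *Tap1* to *Tap2*, was 1.21, 1.24 and 1.16 in unstimulated shControl and 1.64, 1.51 and 1.63 with IFN-β, and 1.44, 1.32 and 1.32 in unstimulated sh*Ppargc1b*, above each unstimulated shControl value. With IFN-β it was 1.74, 1.58 and 1.75 in sh*Ppargc1b*, which overlapped with shControl (exact permutation p = 0.3). *Tap1* to *B2m* overlapped between the hairpins without IFN-β and was separate with it, at 0.0449, 0.0415 and 0.0422 in shControl and 0.0344, 0.0345 and 0.0358 in sh*Ppargc1b*. *Nlrc5* to *H2-K1* followed the same order, at 0.283, 0.291 and 0.283 in shControl and 0.246, 0.223 and 0.264 in sh*Ppargc1b* with IFN-β. Each comparison in which the groups were separate had an exact permutation p of 0.1.

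**Figure D4:**
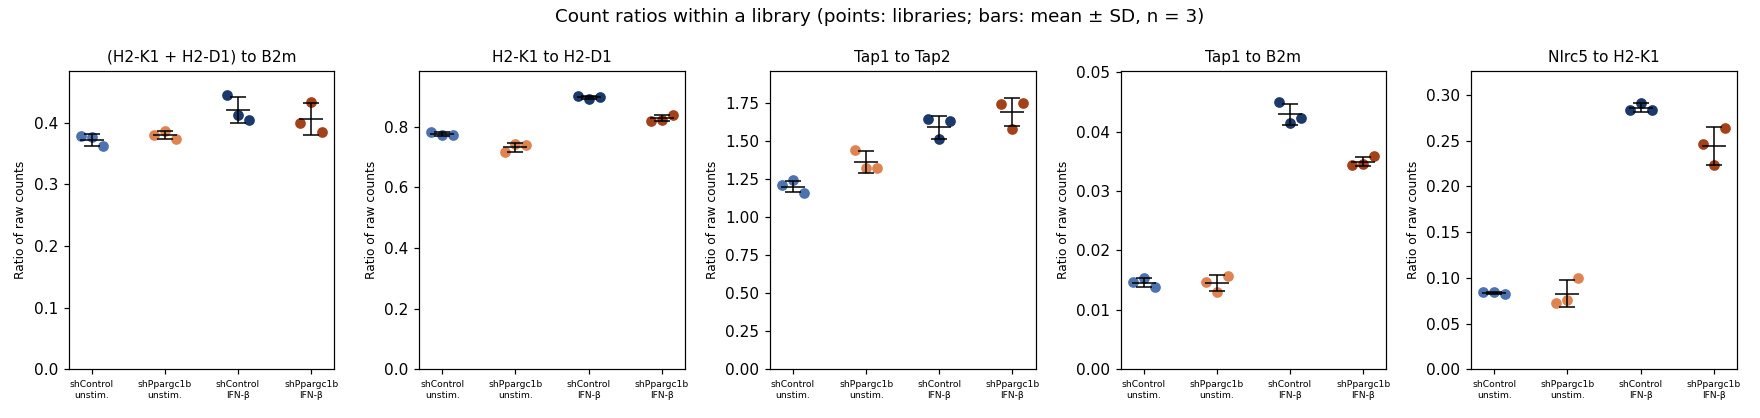
Ratios of raw counts between members within each of the 12 libraries, in 5 panels; points are libraries and bars are the mean ± SD of 3. In the panel of *H2-K1* to *H2-D1* the shPpargc1b points (0.715 to 0.742 and 0.82 to 0.84) lie below the shControl points (0.772 to 0.783 and 0.892 to 0.902) in both treatments.

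The members were not alike in pattern. The distance between 2 genes was taken as the root-mean-square difference of their log2 CPM over the 12 libraries, after each gene was centred on its own mean. The closest members were *H2-T23* and *Tapbp* (0.0367), then *H2-D1* and *B2m* (0.0616), and the farthest were *B2m* and *Nlrc5* (0.97). Among 8741 other genes of at least moderate level, those nearest to *Nlrc5* were *Stat2* (0.0504), a component of the interferon-activated factor ISGF3, *Znfx1* (0.0594) and *Rnf213* (0.0665). *Tap1* was nearest to *Pml* (0.0635), *Trim30d* (0.0736) and *Sp140* (0.0763). *H2-K1* was nearest to *Ripk2* (0.0696), *H2-M3* (0.0731), itself a nonclassical class I gene, and *Shisa5* (0.0741). *B2m* was nearest to *Ctsz* (0.05), a lysosomal protease gene, *Atxn7l1* (0.0624) and *Galnt7* (0.064), and *Erap1* to *Man2a1* (0.0377), a Golgi mannosidase gene, *Bloc1s6* (0.0404) and *Sema4d* (0.0486). These distances share the libraries and are a description.

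Other genes of the pathway were examined in lists written from general knowledge, with values given as log2 fold changes ± SE. Their counts, and those of the marker lists below, are to be read beside the shares over all genes. Between the hairpins 12.4% were higher and 11.1% lower without IFN-β, and 11.5% and 12.7% with it. IFN-β raised 23.7% and lowered 24.6% in shControl, and 21.4% and 21.2% in sh*Ppargc1b*. The interaction called 0.669% lower and 0.0603% higher. Of 16 heavy chain relatives 12 were tested, and *H2-T3*, *H2-Bl*, *H2-Q1* and *H2-Q2* had at most 14 counts in any library. In sh*Ppargc1b* without IFN-β 6 were higher and 3 lower (median 0.24), and with IFN-β 2 were higher and 4 lower (median −0.08). The Q region genes *H2-Q6* (0.72 ± 0.09, adjusted p = 3.84e-05) and *H2-Q7* (0.65 ± 0.09, adjusted p = 5.71e-05) rose most without IFN-β. *Fcgrt*, the heavy chain of the neonatal Fc receptor, fell in both treatments (−0.95 ± 0.12, adjusted p = 2.5e-05 and −0.83 ± 0.12, adjusted p = 0.000136), and so did *Hfe*, which acts in iron sensing (−0.73 ± 0.09, adjusted p = 2.6e-05 and −0.51 ± 0.09, adjusted p = 0.000703). IFN-β raised 9 of the 12 in shControl and 8 in sh*Ppargc1b*, with *H2-T22* (2.83 ± 0.06 and 2.52 ± 0.06) and *H2-T24* (2.53 ± 0.07 and 2.22 ± 0.06) at the top and adjusted p of at most 2.38e-13. IFN-β lowered 2 of the 12 in shControl and none in sh*Ppargc1b*, where it lowered 2 with library totals only. None of the 12 passed the interaction test by edgeR, where 6 had an unadjusted p under 0.05, and 5 passed by DESeq2. With IFN-β the count of 6 genes called between the hairpins was 3 without the first sh*Ppargc1b* IFN-β library.

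Of 9 ER chaperones and loading partners, 6 were higher in sh*Ppargc1b* without IFN-β and 4 with it, and none was lower. *Hspa5*, the chaperone BiP, was higher by 0.46 ± 0.07, adjusted p = 0.000318 without and by 0.22 ± 0.07, adjusted p = 0.0459 with IFN-β, although the second call was lost without 5 single libraries (the first and the third shControl IFN-β libraries and each sh*Ppargc1b* IFN-β library, adjusted p of up to 0.217). Calreticulin, *Calr*, which holds heavy chains in the loading complex, was higher in both (0.26 ± 0.05, adjusted p = 0.00244 and 0.23 ± 0.05, adjusted p = 0.00476). *Tapbpl*, a tapasin relative that edits peptides, rose by 0.36 ± 0.07, adjusted p = 0.00221 without IFN-β and was at −0.14 ± 0.07, adjusted p = 0.158 with it. It passed the interaction test at −0.50 ± 0.10, adjusted p = 0.0334, a call that was lost without 7 of the 12 libraries (the first or second unstimulated shControl one, the second or the third of shControl with IFN-β, the second or the third unstimulated sh*Ppargc1b* one and the third of sh*Ppargc1b* with IFN-β, adjusted p of up to 0.111). IFN-β raised 7 of the 9 genes and lowered 1 in shControl, and raised 6 and lowered 1 in sh*Ppargc1b*, against 3 and 3, and 3 and 2, with library totals only. It raised *Tapbpl* by 2.29 ± 0.07 in shControl and by 1.79 ± 0.07 in sh*Ppargc1b*. With IFN-β the count of 4 fell to 1 or 2 without any 1 of 5 libraries of the comparison (replicates 1 and 3 of shControl and each sh*Ppargc1b* replicate).

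Of 12 genes of peptide supply (immunoproteasome subunits, proteasome activators and cytosolic peptidases), 5 were higher and 1 lower in sh*Ppargc1b* without IFN-β, whereas 1 was higher and 5 lower with it. The immunoproteasome subunit gene *Psmb8* went from a rise of 0.20 ± 0.04, adjusted p = 0.00181 to a fall (−0.16 ± 0.04, adjusted p = 0.0093), and its interaction was −0.36 ± 0.06, adjusted p = 0.0097. Without the third unstimulated shControl library that adjusted p was 0.0506, and it was under 0.05 in each of 16 other settings. The fall with IFN-β had an adjusted p of 0.0572 in the fit without a filter on low counts. *Psmb9*, another subunit, showed the same turn (0.17 ± 0.05, adjusted p = 0.0146, then −0.14 ± 0.04, adjusted p = 0.028), and its interaction term was −0.31 ± 0.06, adjusted p = 0.0359. That call was lost without 9 of the 12 libraries, and kept without the first shControl IFN-β library, the second unstimulated sh*Ppargc1b* library or the second sh*Ppargc1b* IFN-β library. The 2 calls of *Psmb9* between the hairpins were weaker as well, since the one without IFN-β was lost without the third library of either unstimulated group and the one with IFN-β without 7 of the 12 libraries, with adjusted p of up to 0.0677 and 0.162. The interaction called 2 of the 12 genes by edgeR and 4 by DESeq2. *Psmb9* overlaps *Tap1* on the opposite strand over 212 exonic bases. The peptidase gene *Npepps* was lower in both treatments (−0.22 ± 0.04, adjusted p = 0.00144 and −0.26 ± 0.04, adjusted p = 0.000388). IFN-β raised 8 and lowered 3 of the 12 genes in each kind of cell, with *Lap3*, a leucine aminopeptidase gene (2.16 ± 0.05 and 1.85 ± 0.05), and *Psmb10* (2.0 ± 0.06 and 1.99 ± 0.06) rising most and *Thop1*, which degrades cytosolic peptides, falling most (−0.98 ± 0.16 and −0.87 ± 0.15). With IFN-β the 6 genes called between the hairpins were 2 without the first sh*Ppargc1b* IFN-β library, and 3 without the second one or without the third shControl IFN-β library.

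Of 16 regulators of class I genes, 5 were higher and 2 lower in sh*Ppargc1b* without IFN-β, against 12.4% and 11.1% of all genes. With IFN-β 2 were higher and 3 lower, near the 11.5% and 12.7% of all genes. *Irf8*, a factor of the DC lineage, rose in both (0.37 ± 0.06, adjusted p = 0.000182 and 0.53 ± 0.06, adjusted p = 8.23e-06). *Nfkb1* rose without IFN-β (0.24 ± 0.05, adjusted p = 0.00108) and was at 0.07 ± 0.05, adjusted p = 0.27 with it. *Irf1*, a driver of class I transcription, fell with IFN-β (−0.34 ± 0.04, adjusted p = 2.62e-05) and was at −0.08 ± 0.04, adjusted p = 0.191 without it. *Rfx5*, whose product is part of the complex that recruits NLRC5, fell with IFN-β (−0.29 ± 0.04, adjusted p = 0.000118). *Rfx5* was lower without IFN-β too (−0.13 ± 0.04, adjusted p = 0.0436), a call lost in 12 of 18 other settings, with adjusted p of up to 0.46. *Stat2*, a signal transducer of type I interferon, rose without IFN-β (0.21 ± 0.05, adjusted p = 0.00479) and was at −0.10 ± 0.05, adjusted p = 0.169 with it. IFN-β raised 10 of the 16 and lowered 2 in shControl, and raised 9 and lowered 1 in sh*Ppargc1b*, against 9 and 7, and 9 and 6, with library totals only. It raised *Stat2* by 2.66 ± 0.05 and 2.35 ± 0.05. None of the 16 passed the interaction test by edgeR, where 8 had an unadjusted p under 0.05, and 3 passed by DESeq2. The interaction term of *Stat2* was −0.31 ± 0.07, adjusted p = 0.0534.

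**Figure D5:**
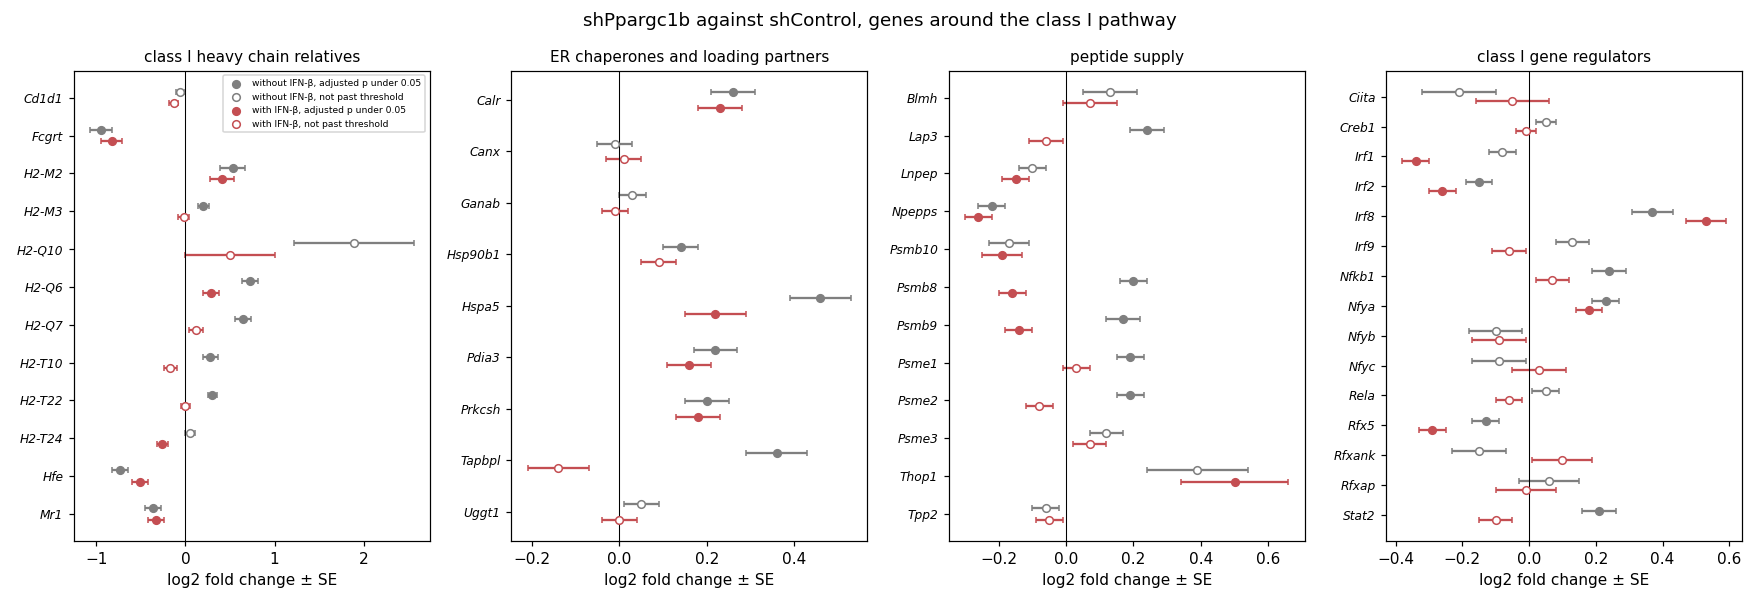
Log2 fold change ± SE of shPpargc1b against shControl, without and with IFN-β, for tested genes of 4 lists around the class I pathway; filled points passed an adjusted p of 0.05. *Psmb8*, *Psmb9* and *Tapbpl* lie above 0 without IFN-β and below 0 with it, while *Fcgrt* and *Hfe* lie below 0 in both.

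Of 11 genes of class I export and turnover, 2 were higher without IFN-β and 3 with it, and none was lower. *Sec61b*, a part of the ER translocon, was higher in both (0.35 ± 0.04, adjusted p = 2.06e-05 and 0.35 ± 0.04, adjusted p = 2.21e-05), as was *Sec24d*, a COPII coat gene (0.26 ± 0.05, adjusted p = 0.00106 and 0.14 ± 0.05, adjusted p = 0.0492). The call of *Sec24d* with IFN-β was lost in 8 of 18 other settings, DESeq2 and each shControl IFN-β library left out among them, with adjusted p of up to 0.279. The count of 2 was 4 without the first unstimulated sh*Ppargc1b* or the third unstimulated shControl library, and the count of 3 was 1 without the first or the third shControl IFN-β library or the second sh*Ppargc1b* one. Of 11 genes of cross-presentation, 1 was higher and 2 lower in sh*Ppargc1b* in each treatment. These counts were near the shares over all genes, 12.4% higher and 11.1% lower without IFN-β and 11.5% and 12.7% with it. *Rab27a*, which brings NADPH oxidase to DC phagosomes, was higher (0.45 ± 0.08, adjusted p = 0.00101 and 0.50 ± 0.09, adjusted p = 0.00048). *Cybb*, the catalytic subunit of that oxidase, was lower (−0.27 ± 0.05, adjusted p = 0.000465 and −0.24 ± 0.05, adjusted p = 0.00115), and *Snap23* was lower too (−0.17 ± 0.04, adjusted p = 0.00307 and −0.12 ± 0.04, adjusted p = 0.0254), although its call with IFN-β was lost in 12 of 18 other settings, with adjusted p of up to 0.224. IFN-β raised 6 of these 11 genes in each kind of cell, *Tlr9* most (2.48 ± 0.14 and 2.03 ± 0.14), and 4 of the 11 export genes in shControl and 2 in sh*Ppargc1b*, while 1 export gene fell in each. The cross-presentation count in shControl was 3 without the third unstimulated shControl library, and the export count there, 5 in both directions together, was 3 without the first unstimulated shControl library. The count of 6 in sh*Ppargc1b* included *Xcr1*, whose call was lost in 14 of 18 other settings, with adjusted p of up to 0.188. With library totals only, which lower all fold changes under IFN-β, cross-presentation genes split into 2 higher and 4 lower in shControl and 3 and 2 in sh*Ppargc1b*, and export genes into 2 and 7 and into 1 and 7.

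Markers of cell types were read beside these results, because in bulk samples fewer cells of a type and less RNA per cell cannot be told apart. Dendritic markers were present, with summed levels of 3800 to 5510 CPM over the 12 libraries, although *Cd209a* had at most 11 counts. In sh*Ppargc1b* 4 of the 9 tested were higher without IFN-β and 5 with it, among them *Ccr7* (1.32 ± 0.07, adjusted p = 1.18e-08 and 1.36 ± 0.07, adjusted p = 1.22e-08) and *Zbtb46* (0.61 ± 0.09, adjusted p = 0.000157 and 0.65 ± 0.09, adjusted p = 0.000104), and none was lower. Macrophage markers were present too, and their summed level was 2650 to 2780 CPM in unstimulated shControl and 2420 to 2480 CPM in unstimulated sh*Ppargc1b*, and with IFN-β 3350 to 3570 CPM and 2950 to 3080 CPM. Of the 9 tested, 2 were lower in sh*Ppargc1b* without IFN-β and 4 with it, led by *Mrc1* (−1.51 ± 0.11, adjusted p = 1.99e-07 and −1.42 ± 0.11, adjusted p = 5.83e-07). With IFN-β the macrophage count was 2 without the first or second sh*Ppargc1b* IFN-β library or without the third shControl IFN-β library, and the dendritic count was 3 without the second shControl IFN-β library. The part of these shifts in the class I differences between the hairpins was not tested.

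Neutrophil markers summed to 39.2 to 101 CPM in shControl and 87.4 to 164 CPM in sh*Ppargc1b* libraries, and 1 of 9, *S100a8*, was higher in each treatment (0.83 ± 0.26, adjusted p = 0.0322 and 0.88 ± 0.26, adjusted p = 0.0246). Most of the sum came from *S100a8*, *S100a9* and *Ngp*. Without IFN-β the estimates of *Mpo* (−0.92), *Elane* (−1.46), *Ly6g* (−0.42) and *Retnlg* (−0.78) were below 0, and none of them was called. Those of the remaining neutrophil markers were above 0. No neutrophil marker was called by DESeq2 without IFN-β, or by edgeR without the third unstimulated shControl library, and none was called with IFN-β without the first or the third IFN-β library of either hairpin. Mast cell or basophil markers summed to 7.64 to 25.7 CPM, with *Gata2* and *Kit* higher in both treatments among 6 tested. Lymphocyte markers summed to at most 0.79 CPM, and 3 of the 8 were tested, none of which was called between the hairpins by edgeR or DESeq2 or had an unadjusted p under 0.05. The erythroid markers had at most 15 counts in any library, and none was tested.

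Some members share sequence or exons with other genes, which can move counts between them. Of the windows of 100 bases in its transcripts, 14.8% were shared with another gene for *Tapbp*, 14.1% for *H2-Q4*, 10% for *Erap1* and 4.99% for *Tap2*, and at most 3.59% for the other 6. No window of *B2m* or *Nlrc5* was shared. For *Tapbp*, *H2-Q4* and *Erap1* most of it was an overlap with a gene on the opposite strand, *Gm19412*, *Gm11131* and *Cast*. *Gm19412* had 56 to 176 counts per library and *Gm11131* 98 to 418, against at least 20679 for *Tapbp* and 4422 for *H2-Q4*, whereas *Cast*, the calpastatin gene, had 10233 to 18165 counts, more than *Erap1* with 5753 to 14435. Which strand was counted is not given in the sources used here, so reads over these overlaps cannot be assigned with certainty. Over windows of 300 bases, 7.69% of those of *Erap1* and 4.09% of those of *H2-Q4* were shared, and the heavy chains *H2-K1*, *H2-D1* and *H2-T23* shared none.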

How the data were processed

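RNA-seq of 12 mouse DC libraries was used, with groups taken from the sample titles, without replicate numbers in the labels. Replicates were numbered in record order and not paired in the main fit. The block for runs of library codes, an alternative fit, groups libraries of the same replicate number. The authors depleted ribosomal RNA, trimmed read pairs with trim_galore, mapped them to mm10 with STAR and took its gene counts on GENCODE genes. The version of STAR differed between the submitters' processing notes (2.7.8a) and the methods. The deposited values were raw counts of uniquely mapped read pairs, with no normalization, so pairs from sequence present in more than 1 place were not counted. The authors' strand setting is not given in the sources used here.

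The counts were tested in R 4.3.3 with edgeR 4.0.16. filterByExpr (minimum count 10, minimum total 15) kept 18228 of 55471 genes. TMM factors were 1.07 to 1.09 without and 0.914 to 0.941 with IFN-β. The 12 libraries entered a single quasi-likelihood model with a mean for each of the 4 groups, and F-test p-values of the 18228 genes were Benjamini-Hochberg adjusted. Genes under 0.05 were called. Each adjusted p of a gene comes from this test unless another setting or a left-out library is named beside it. Single values and ratios were compared by exact two-sided permutation tests, whose smallest p is 0.1. Replicates of a group differed by more than sampling noise. Levels per kb used the merged exons of GENCODE M21, which is later than the authors' release, and RefSeq gave the promoters. The alternatives were other size factors, library totals only, all genes with at least 1 count, DESeq2 1.42.0, only the 2 groups compared, a block for runs of library codes, and each library left out.

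The members and lists were chosen with earlier results of these data known. Genes named from the lists were, for each, up to 2 called genes at each end of the log2 fold changes, with a few others named after their values were seen (*Calr* without IFN-β, *Stat2*, *Psmb8* and *Psmb9* between the hairpins, and list genes printed beside a called value of the same gene). Those named for likeness were the 3 nearest, with a mean log2 CPM of at least 3. The values of 1 regulator are not reported here.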

Additional observations from a re-analysis of the deposited data

Results flagged for a closer look

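In 3 of the 10 genes the effect of the *Ppargc1b* hairpin differed between the treatments by the interaction test of edgeR. The knockdown effect with IFN-β minus that without it was −0.35 on the log2 scale for *H2-T23* (adjusted p = 0.0234), −0.38 for *Tap1* (adjusted p = 0.0263) and −0.40 for *Nlrc5* (adjusted p = 0.0333). Among the genes around the pathway, the same held for *Tapbpl* at −0.50 (adjusted p = 0.0334), *Psmb8* at −0.36 (adjusted p = 0.0097) and *Psmb9* at −0.31 (adjusted p = 0.0359). All 6 are genes that IFN-β raised in both kinds of cell, and all 6 were higher in the knockdown cells without IFN-β. Over all genes, 0.669% passed the interaction test with a lower value. Of 17 other settings, 6 lost the call of *H2-T23*, and 8 each those of *Tap1*, *Nlrc5* and *Tapbpl*. The call of *Psmb9* was lost in 10 and that of *Psmb8* in 1. *Psmb9* and *Tap1* lie next to each other with opposite strands and overlap over 212 exonic bases, and which strand was counted is not given in the sources used here.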

How the results depend on the processing

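The counts of 8 genes higher without IFN-β and of 10 genes raised by IFN-β in each kind of cell were the same in every setting run. Between the hairpins with IFN-β, 5 genes were called, 3 with library totals only and 1 to 4 with a library left out. The interaction called 3 genes, 5 with RLE size factors, 1 with library totals only, 6 with all genes of at least 1 count, 5 with DESeq2, 5 with a block for the library-code runs and 0 to 5 with a library left out. Over all genes the interaction called 133, against 151, 84, 525, 449 and 425 in those fits, and 36 to 271 with a library left out. A run is 4 consecutive library codes, 1 library per group, which the labels do not call a batch, and deviations of libraries within a run correlated at −0.134 to 0.484. The labels give no replicate numbers, so no pairs were formed outside the block fit.

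Near 0 the sign was not fixed. *Erap1* without IFN-β (−0.01) was at 0.01 with all genes of at least 1 count and between −0.03 and 0.01 with a library left out. *Tapbp* with IFN-β (−0.01) was at 0.02 with library totals, 0.01 with all genes and 0.01 with only the 2 groups compared, and between −0.04 and 0.02 with a library left out. *Sec61a1* under IFN-β in shPpargc1b (0.13) was at −0.07 with library totals, which moved the median of all genes to −0.27 and −0.22 in the 2 IFN-β comparisons, where the medians of the 10 genes were 1.29 and 1.02. The causes were not tested. The alternatives for list genes and for windows of 300 bases were chosen after seeing the data. The 10 genes had at least 3120 counts in each library, so none was near the filter on low counts.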
